A study of Mus musculus with 57 samples.

Results

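The Foxf and Foxp genes are members of the forkhead family of transcription factors, and 6 of them, *Foxf1*, *Foxf2*, *Foxp1*, *Foxp2*, *Foxp3* and *Foxp4*, were followed by name among the 56860 genes of the count and TPM tables. All 6 were listed in both tables. The Foxf and Foxp subfamilies were taken as named groups of genes, with 1 exception, since *Foxf2* had been picked for its low level in mutant diaphragm. The *Foxf2* values in diaphragm, those of wt included, are therefore given as a description, without a test. Another 39 forkhead genes served for comparison.

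Forkhead proteins bind DNA through a winged-helix domain. FOXF1 and FOXF2 act in the mesenchyme around the gut tube, the lung buds and the trachea, where their genes are known targets of Hedgehog signals sent by the epithelium, and FOXF1 is needed for lung vessels and airway mesenchyme. FOXP1, FOXP2 and FOXP4 are mostly repressors that pair with each other through a leucine zipper and are known from lung epithelium and from muscle and neural tissue, whereas FOXP3 is the lineage factor of regulatory T cells.

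The libraries came from wt embryos and from homozygous *Hoxa5*-/- embryos of the 129/Sv background, and the null allele carries a neomycin cassette inserted in the *Hoxa5* homeobox. The allele was constitutive, so that every cell of a mutant embryo carried it, and no group had another agent or allele. There were 7 contexts. Lung was taken at E12.5 and E15.5, trachea and diaphragm at E15.5 only, somites at 2 stages, E10.5 and E12.5, and iBAT, the brown fat between the shoulder blades, at E18.5. Each genotype had 4 libraries per context, except for somites at E10.5 with 4 wt and 3 *Hoxa5*-/- libraries and iBAT with 5 of each. What is called somites is dissected trunk tissue at neck and upper chest level, without neural tube, limb or viscera. The 32 respiratory libraries (lung, trachea, diaphragm) were read from 1 end over 100 bases at one centre, and the 25 of iBAT and somites from both ends over 150 bases at another. Tissue set and centre therefore cannot be told apart. Levels are given as TPM, a share of the library's transcripts that is scaled by the length of a gene's counted exons. How levels of different genes compare within a library therefore depends on that length.

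Coordinates below are those of the deposited annotation (GRCm39). *Foxf1* (ENSMUSG00000042812.6, chr8:121811125-121814883, plus strand) and *Foxf2* (ENSMUSG00000038402.3, chr13:31809799-31815386, plus strand) are compact genes of 2 exons and 1 transcript each. The lncRNA *Fendrr* lies 1276 bases from *Foxf1* on the opposite strand, and the lncRNA *1700018A04Rik* lies 24 bases from *Foxf2*, also on the opposite strand. The other forkhead genes nearest to *Foxf2* are *Foxq1*, at 64840 bases, and *Foxc1*, at 175230 bases. *Foxp1* (ENSMUSG00000030067.18, chr6:98902299-99499682, minus strand) and *Foxp2* (ENSMUSG00000029563.17, chr6:14901348-15441976, plus strand) span 597384 and 540629 bases, with 31 and 20 annotated transcripts. *Foxp3* (ENSMUSG00000039521.14, chrX:7439883-7461484, plus strand) spans 21602 bases and overlaps *Ppp1r3f* of the opposite strand. *Foxp4* (ENSMUSG00000023991.17, chr17:48178058-48235570, minus strand) spans 57513 bases and overlaps the lncRNA *Gm15556*. The strand setting of the counting is not given in the sources used here, so that reads of overlapping genes cannot be told apart.

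Promoter windows of 300 bases, from 250 before to 50 after an annotated start, were available for 4 of the 6 genes in a RefSeq table of build GRCm38.p6, whose coordinates differ from those above. The windows of *Foxf2*, of *Foxp4* and the first of *Foxp3* are printed because these genes are, in turn, the one picked for its level in mutant diaphragm, the Foxp gene with the highest mean TPM in every context, and the one near 0 in every library. Capitals mark the CG dinucleotides.
*Foxf2*, chr13:31625566-31625865, plus strand: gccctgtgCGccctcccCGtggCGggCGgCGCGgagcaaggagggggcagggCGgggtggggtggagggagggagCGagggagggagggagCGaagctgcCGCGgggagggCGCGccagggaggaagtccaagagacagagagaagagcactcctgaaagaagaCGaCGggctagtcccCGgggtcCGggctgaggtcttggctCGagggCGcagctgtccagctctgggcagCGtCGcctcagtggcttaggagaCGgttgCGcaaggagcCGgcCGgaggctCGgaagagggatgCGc
*Foxp4*, chr17:47924583-47924882, minus strand: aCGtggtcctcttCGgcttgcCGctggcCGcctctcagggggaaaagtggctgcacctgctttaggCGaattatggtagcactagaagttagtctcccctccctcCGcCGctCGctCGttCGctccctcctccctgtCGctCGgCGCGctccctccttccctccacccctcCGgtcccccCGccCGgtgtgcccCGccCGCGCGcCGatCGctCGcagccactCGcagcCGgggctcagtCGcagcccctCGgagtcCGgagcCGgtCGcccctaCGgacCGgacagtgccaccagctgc
*Foxp3*, chrX:7579426-7579725, plus strand: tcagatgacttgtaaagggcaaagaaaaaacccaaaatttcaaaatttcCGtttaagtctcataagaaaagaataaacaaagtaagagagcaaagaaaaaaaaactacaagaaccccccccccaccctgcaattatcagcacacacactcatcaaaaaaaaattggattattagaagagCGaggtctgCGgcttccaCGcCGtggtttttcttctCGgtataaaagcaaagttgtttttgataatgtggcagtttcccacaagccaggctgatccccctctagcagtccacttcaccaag
The *Foxf2* window holds 27 CG and a GC content of 71.3%, and the *Foxp4* window 33 CG and 70.3%, whereas the *Foxp3* window holds 6 CG and 40.7%. Over all 32851 windows of the table, the median was 7 CG and 52.7% GC, and 84.5%, 91.4% and 43.6% of windows held fewer CG than those of *Foxf2*, *Foxp4* and *Foxp3*. On both strands, the homeodomain core TAAT was found 0 times in the *Foxf2* window, 1 time in that of *Foxp4* and 4 times in that of *Foxp3*, and it is present in 58.0% of all windows. The forkhead motif TGTTTAC (3.65% of all windows) and the GLI motif GACCACCCA (0.253%) were in none of the 3 windows, and TATAAA (13.6%) was in that of *Foxp3*, 1 time. These are descriptions of the letters in these windows.

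Total counts ran from 18369905 to 72991481 per library. *Hoxa5* itself, whose reads can still be counted from the mutant allele, was lower in every *Hoxa5*-/- library than in every wt library of its context, for example 60.1 to 94.7 TPM in wt against 15.3 to 26.6 TPM in mutant diaphragm, and 164 to 236 against 85.2 to 112 TPM in somites at E10.5. Marker lists of the labelled tissues were highest where the labels place them. The summed TPM of 9 skeletal muscle genes was 14850 to 30730 in wt diaphragm and at most 3090 in the wt libraries of the other contexts, that of 7 brown fat genes was 13690 to 20250 in wt iBAT, and that of 6 lung epithelium genes was 3512 to 9344 in wt lung at E15.5. Some libraries held high levels of markers of neighbouring tissue, and the source of these was not tested. Wt replicate 3 of trachea had 288 TPM of the surfactant gene *Sftpc*, with 2.47 TPM in the lowest wt library, and mutant trachea reached up to 3297 TPM of the skeletal muscle list against a median of 113. Libraries of diaphragm that stand apart are described with the diaphragm results. The samples are bulk tissues, so that fewer cells of a type and less RNA per cell cannot be told apart.

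*Foxf1* was a gene of the lung and trachea. In wt lung at E12.5, its level was 272, 320, 318 and 347 TPM in the 4 libraries, and in wt lung at E15.5 it was 255, 238, 183 and 233 TPM. Wt trachea had 81.0, 72.3, 56.5 and 55.2 TPM, and wt diaphragm had 15.3, 28.9, 41.4 and 9.37 TPM. The lowest lung library thus lay above the highest trachea library, and the lowest trachea library above the highest diaphragm library. Somites at E10.5 had 20.3, 25.8, 20.5 and 14.2 TPM, within the range of diaphragm, and somites at E12.5 had 9.59, 9.13, 7.21 and 6.50 TPM. In wt iBAT, *Foxf1* had 0 to 5 counts per library. In means ± SD, the order was lung at E12.5 (314 ± 31.2 TPM, n = 4), lung at E15.5 (227 ± 31.1), trachea (66.2 ± 12.503), diaphragm (23.7 ± 14.3), somites at E10.5 (20.2 ± 4.71) and somites at E12.5 (8.11 ± 1.49), and diaphragm and somites at E10.5 were the neighbours in this order whose ranges overlapped.

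*Foxf2* followed another order, with its highest level later in the lung. Wt lung at E15.5 had 145, 132, 102 and 136 TPM, and wt lung at E12.5 had 56.7, 54.9, 69.5 and 61.5 TPM, so that the stages did not overlap. All other contexts were lower. Trachea had 12.6, 15.2, 13.1 and 10.007 TPM, somites at E10.5 16.02, 13.8, 17.2 and 13.9 TPM, somites at E12.5 16.2, 16.4, 6.65 and 12.9 TPM, and diaphragm 5.03, 10.2, 18.9 and 2.48 TPM. These 4 contexts overlapped, with means of 12.7 ± 2.13, 15.2 ± 1.67, 13.05 ± 4.55 and 9.15 ± 7.24 TPM (SD, n = 4). In iBAT, *Foxf2* had 1 to 3 counts in each of the 5 wt libraries and 0 counts in each of the 5 *Hoxa5*-/- libraries, and both groups lie at or under the floor of 3 counts per library, so no fold is given.

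**Figure D1:**
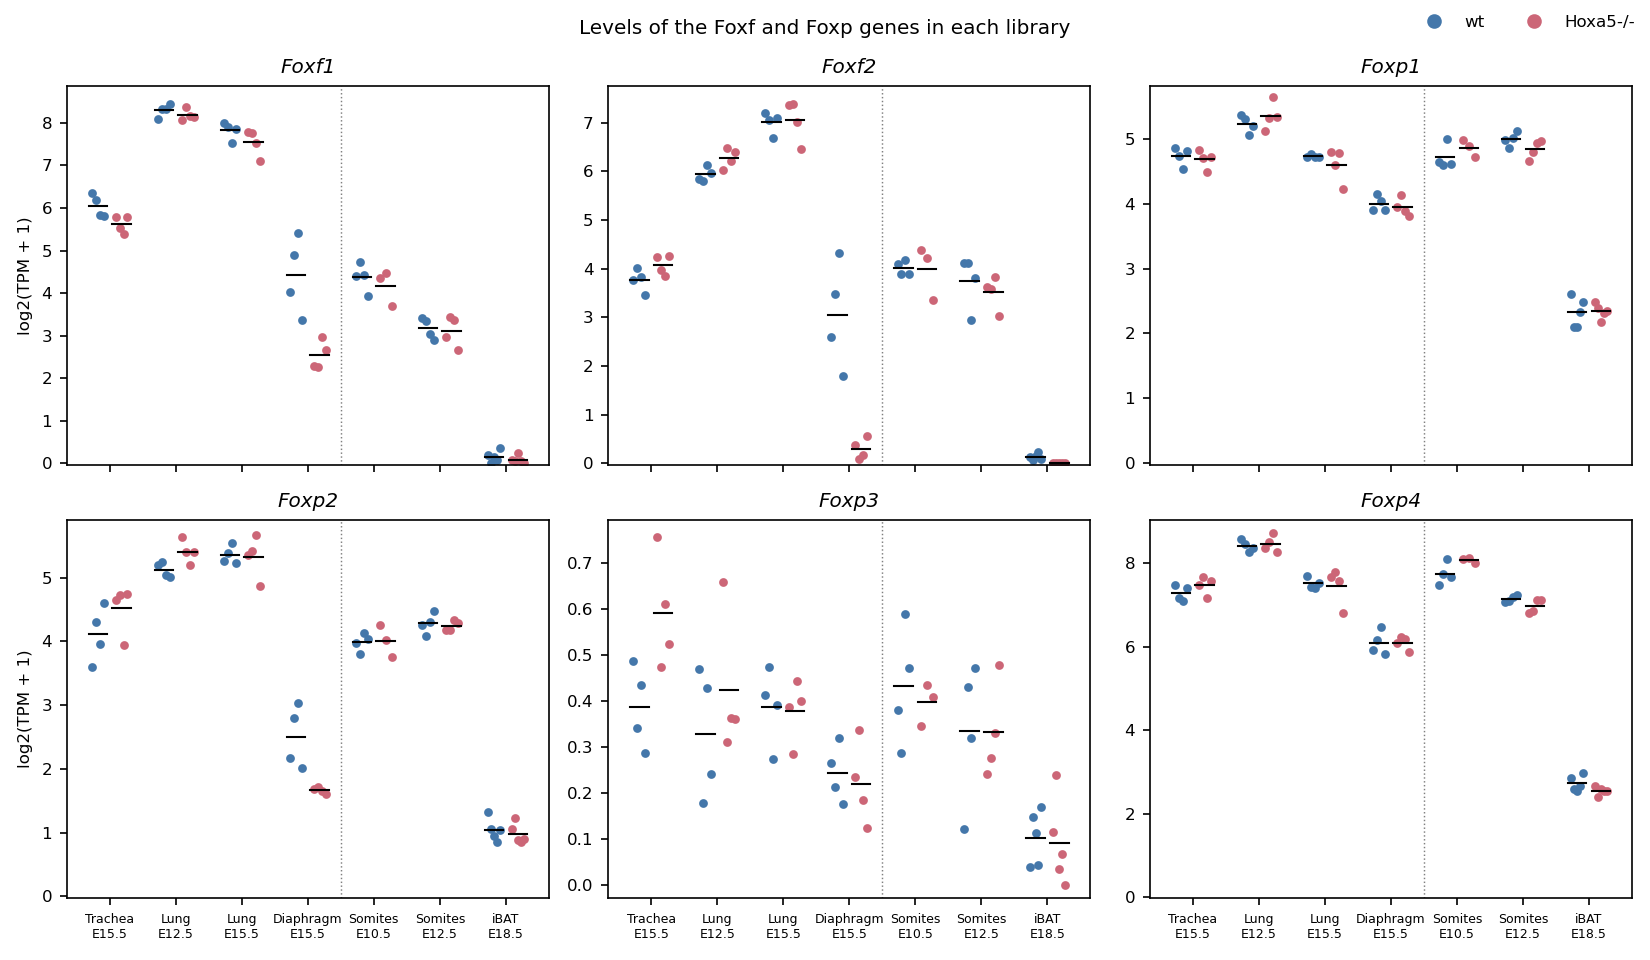
Level of each Foxf and Foxp gene in every library, as log2(TPM + 1) on the vertical axis, by context and genotype, with bars at the mean of the log2 values and a dotted line between the 2 sequencing sets. *Foxf1* and *Foxf2* are highest in lung and near 0 in iBAT, the mean of *Foxp4* lies above those of *Foxp1* and *Foxp2* in every context, and *Foxp3* stays below 1 TPM in all libraries.

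Between stages of wt lung, 1 of the 5 genes tested was higher at E15.5 and 1 lower, where 14.5% and 8.54% of the 20455 genes tested were higher and lower. *Foxf2* was higher at E15.5 (log2 fold change 1.06, SE 0.344, adjusted p = 0.0214, quasi-likelihood test of edgeR with Benjamini-Hochberg adjustment over all genes tested, here and in the tests of genes that follow). That call was lost without wt replicate 1 or wt replicate 2 of lung at E12.5, where the count of members called was 1. *Foxp4* was lower at E15.5 (log2 fold change -0.93, SE 0.122, adjusted p = 1.85e-05). *Foxf1* was at -0.49 with an SE of 0.282 (edgeR adjusted p = 0.176), and *Foxp1*, at -0.55 (edgeR adjusted p = 7.39e-05), stayed under the fold minimum of 1.5. Of 10 Hedgehog pathway genes, which include the receptor *Ptch1*, its antagonist *Hhip* and the GLI factors, 1 was called higher and 3 lower at E15.5, and of 13 subunits of corepressors that bind FOXP proteins 0 were called by edgeR.

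Against trachea, wt lung held more of each gene that was called. At E12.5, 5 of 5 members were higher in lung than in trachea (15.4% of all genes tested). Log2 fold changes were 2.35 for *Foxf1* (SE 0.297) and 2.35 for *Foxf2* (SE 0.369), and 1.24, 1.11 and 0.62 for *Foxp4*, *Foxp2* and *Foxp1*, with edgeR adjusted p from 3.80e-07 to 0.000507. Leaving out single libraries gave 4 or 5 calls, as *Foxp1* lies near the fold minimum. At E15.5, 3 of 5 were higher in lung than in trachea (11.1% of all genes tested), with log2 fold changes of 3.41 for *Foxf2*, 1.86 for *Foxf1* and 1.32 for *Foxp2* and edgeR adjusted p of 2.24e-06, 6.62e-05 and 0.000163. *Foxp4* was at 0.31 (edgeR adjusted p = 0.0448), under the fold minimum. In the same comparisons, 8 of 13 corepressor genes were higher in lung at E12.5 than in trachea and 2 at E15.5, with 0 lower, among them *Ctbp2* and *Gatad2a* in both. Of the 39 other forkhead genes, 26 were tested, and 3 were higher and 11 lower at E12.5, and 1 higher and 10 lower at E15.5. The share of all genes that were lower is not given here, so the numbers lower are a description only.

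*Foxf1*, *Foxp2* and *Foxp4* were lower in diaphragm than in lung and trachea, and *Foxp1* was called lower only against lung at E12.5. Compared with wt diaphragm, and leaving *Foxf2* aside because wt diaphragm entered its choice, 4 of 4 members were higher in E12.5 lung (15.9% of all genes tested), 3 of 4 in E15.5 lung (15.6%) and 3 of 4 in trachea (17.3%). For lung at E12.5 the log2 fold changes were 3.49 for *Foxf1*, 2.55 for *Foxp2*, 2.08 for *Foxp4* and 1.04 for *Foxp1*. For lung at E15.5 they were 2.998 for *Foxf1*, 2.76 for *Foxp2* and 1.14 for *Foxp4*, with *Foxp1* at 0.49 under the fold minimum. For trachea they were 1.44 for *Foxp2*, 1.14 for *Foxf1* and 0.84 for *Foxp4*, with *Foxp1* at 0.42 under the fold minimum. The edgeR adjusted p of these calls lay at or below 0.00404. Of the Hedgehog list, 9, 5 and 5 of 10 genes were higher than in diaphragm in the 3 comparisons and 1, 1 and 0 lower. Of the 13 genes of lung and gut mesenchyme, 12 were tested, and 7, 7 and 8 were higher than in diaphragm, with *Fendrr*, *Tcf21* and *Tbx4* among them each time, and 0, 4 and 1 were lower.

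In wt somites, 2 of 5 members were lower at E12.5 than at E10.5 (18.1% of all genes tested were lower). *Foxf1* was lower by a log2 fold change of -1.40 (SE 0.215, edgeR adjusted p = 1.39e-05) and *Foxp4* by -0.69 (SE 0.0925, edgeR adjusted p = 2.79e-06), whereas *Foxf2* was at -0.30 (edgeR adjusted p = 0.218) and *Foxp2* at 0.24. Compared with somites of E12.5 and of E10.5, wt iBAT was lower for *Foxp1*, *Foxp2* and *Foxp4* (36.0% and 36.8% of all genes tested were lower). Log2 fold changes against somites at E12.5 were -3.49 for *Foxp4*, -2.95 for *Foxp2* and -1.78 for *Foxp1*, and against E10.5 they were -4.18, -2.71 and -1.57. For *Foxf1* and *Foxf2*, iBAT libraries held 0 to 5 counts, and a fitted fold change then depends on the prior count and is not given. These genes entered the fit only through their somite levels, so their calls are not counted here. Tissue and stage differ together in these comparisons, as iBAT was taken at E18.5. All 10 Hedgehog genes were lower in iBAT than in somites at E12.5, and so were the 13 mesenchyme genes, while of the 13 corepressor genes 1 was higher and 6 lower. Against somites at E10.5, 9 of 10 Hedgehog genes and 8 of 13 mesenchyme genes were lower, 3 mesenchyme genes (*Fgf10*, *Tbx5* and *Wnt2*) were higher, and of the corepressor genes 1 was higher and 5 lower.

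*Foxp4* was the most abundant of the Foxp genes by mean TPM in every context. In wt lung at E12.5, it had 383, 351, 308 and 326 TPM, in somites at E10.5 177, 214, 272 and 203 TPM, in lung at E15.5 207, 171, 168 and 184 TPM, and in trachea 177, 142, 137 and 168 TPM. Lung at E12.5 lay above the other contexts, and the ranges of somites at E10.5, lung at E15.5, trachea and somites at E12.5 (141 ± 8.22 TPM) each overlapped with the next. Diaphragm had 68.2 ± 14.5 TPM (SD, n = 4) and iBAT 5.66 ± 0.858 TPM (SD, n = 5). Of *Foxp1*, *Foxp2* and *Foxp4*, *Foxp1* varied least between contexts, from 36.8 ± 3.51 TPM in lung at E12.5 through 30.98 ± 2.45 in somites at E12.5, 25.8 ± 2.64 in trachea, 25.6 ± 0.427 in lung at E15.5 and 25.5 ± 3.78 in somites at E10.5, each overlapping with the next, to 15.04 ± 1.35 in diaphragm and 4.07 ± 0.808 in iBAT. Its highest mean was 9.05 times its lowest, compared with 60.4 times for *Foxp4* and 37.3 times for *Foxp2*, and these ratios span both sequencing sets. *Foxp2* was highest in lung, with 37.3, 41.0, 45.7 and 36.7 TPM at E15.5 and 35.8, 37.1, 32.1 and 31.2 TPM at E12.5. The lung stages overlapped, and both lay above somites at E12.5 (18.55 ± 2.23 TPM), trachea (16.99 ± 5.26) and somites at E10.5 (14.9 ± 1.49), which overlapped with each other. Diaphragm and iBAT were lowest for *Foxp2*, with 4.93 ± 1.98 and 1.08 ± 0.260 TPM.

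As a share of the summed TPM of *Foxp1*, *Foxp2* and *Foxp4*, *Foxp4* made up 82.8% ± 0.489 (SD, n = 4) in wt lung at E12.5, 73.4% ± 2.91 in wt lung at E15.5, 84.1% ± 1.56 in wt somites at E10.5 and 52.5% ± 2.37 (n = 5) in wt iBAT. *Foxp2* was 16.3% ± 2.37 in wt lung at E15.5 and 5.42% ± 1.21 in wt diaphragm. *Foxp1* had its largest share in iBAT, with 37.5% ± 2.11, and its smallest in lung at E12.5, with 8.91% ± 0.201. Counted reads per gene do not resolve isoforms, of which these genes have several. The counted exon length behind TPM was 13751 bases for *Foxp1*, 16346 for *Foxp2* and 4926 for *Foxp4*, and these shares depend on it. By counts summed over the wt iBAT libraries the order was reversed, with 2168 for *Foxp1* and 1079 for *Foxp4*.

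*Foxp3* was near the limit of counting. It had between 0 and 25 counts per library, at most 0.691 TPM, in all 57 libraries, and failed the filter of a mean of 1 TPM in each of the 7 contexts, so that it was not tested. The summed TPM of 6 T cell genes that mark regulatory T cells was also low, at 2.09 to 9.76 in the wt libraries and 1.85 to 11.97 in the mutant libraries. *Il2ra*, a receptor chain of these cells, had 0 TPM in all wt and mutant lung libraries at E12.5, and *Cd3e*, a subunit of the T cell receptor complex, was at 0 there too, with its highest group mean in wt diaphragm (1.55 ± 0.848 TPM, n = 4). The few *Foxp3* reads can come from *Foxp3* or from *Ppp1r3f*, which overlaps it on the other strand.

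Loss of *Hoxa5* was compared with wt within each context. Outside diaphragm, 28 genotype effects of the members could be fitted, and 0 were called by edgeR, with 4 at an unadjusted p under 0.05; DESeq2 also called 0, with 4 at an unadjusted p under 0.05. Log2 fold changes, mutant over wt, ran from -0.46 to 0.39. The share of all genes called was as low, with 0.0156% in trachea, 0.0798% in lung at E12.5, 0.124% in lung at E15.5, 0.0215% in somites at E10.5, 0.00529% in somites at E12.5 and 0.00657% in iBAT. *Foxf1*, *Foxf2* and *Foxp3* did not pass the filter in iBAT.

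*Foxf1* in mutant trachea was 54.1, 45.4, 40.9 and 53.9 TPM, against 81.0, 72.3, 56.5 and 55.2 TPM in wt. The groups did not overlap, as was the case with lower mutant values for 1.66% of the 19220 genes tested in trachea. Its log2 fold change was -0.46 with an SE of 0.142, and it did not pass the test (edgeR adjusted p = 0.682). The wt library with 288 TPM of *Sftpc* was the one with 56.5 TPM of *Foxf1*. In the other contexts with a fit outside diaphragm the *Foxf1* effect was also below 0, at -0.11 in lung at E12.5, -0.18 in lung at E15.5 and -0.27 in somites at E10.5 (SE 0.223), with edgeR adjusted p of 0.750, 0.877 and 0.549, and nearest to 0 in somites at E12.5.

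*Foxf2* in lung at E12.5 was 63.8, 88.1, 73.2 and 83.1 TPM in mutants, against 56.7, 54.9, 69.5 and 61.5 TPM in wt. Of the mutant libraries, 3 lay above all wt libraries, and replicate 1 lay between them. The log2 fold change was 0.35 with an SE of 0.0862, which did not pass the test (edgeR adjusted p = 0.264). In trachea, *Foxf2* was 17.9, 14.7, 13.3 and 18.1 TPM in mutants against 12.6, 15.2, 13.1 and 10.007 TPM in wt, with a log2 fold change of 0.32 (SE 0.164, edgeR adjusted p = 0.764). Lung at E15.5 had 164, 166, 129 and 87.6 TPM in mutants, which spanned the wt range, and a log2 fold change of 0.16 (edgeR adjusted p = 0.913). The library with 87.6 TPM, mutant replicate 4, had the lowest mapped and assigned shares of reads among the lung libraries in the study's read statistics. The other mutants had 129 to 166 TPM. In somites at E12.5, the log2 fold change was -0.29 (SE 0.262).

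*Foxp2* was 48.7, 41.5, 35.6 and 41.2 TPM in mutant lung at E12.5, against 35.8, 37.1, 32.1 and 31.2 TPM in wt, and the groups overlapped. Its log2 fold change there was 0.31 (SE 0.128, edgeR adjusted p = 0.591). In trachea it was 24.1, 25.6, 14.4 and 25.9 TPM in mutants against 11.2, 18.9, 14.6 and 23.3 TPM in wt (log2 fold change 0.39, SE 0.255, edgeR adjusted p = 0.785), with mutant replicate 3 low among the mutants. *Foxp4* in somites at E10.5 was 275, 276 and 254 TPM in mutants against 177, 214, 272 and 203 TPM in wt. Wt replicate 3 lay among the mutants and the other 3 wt libraries below them, and the log2 fold change of 0.27 (SE 0.108) did not pass the test (edgeR adjusted p = 0.391). *Foxp1* effects outside diaphragm lay between -0.15 and 0.14 in all 6 contexts, the narrowest range of the members with 6 fits.

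**Figure D2:**
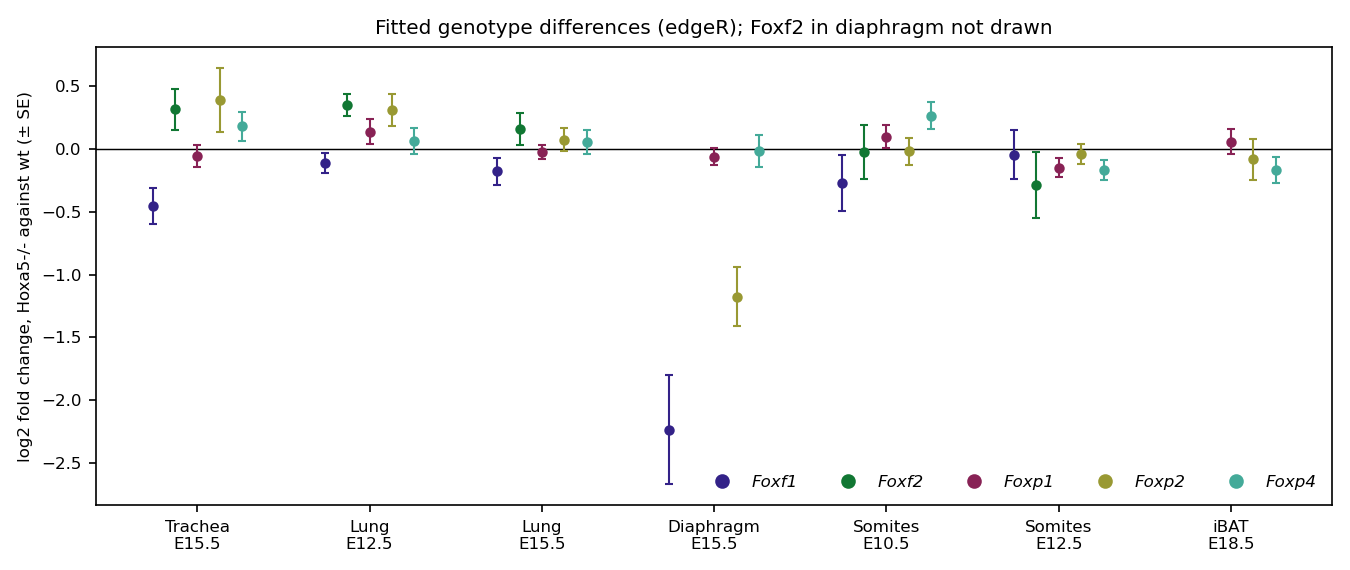
Log2 fold change of *Hoxa5*-/- over wt libraries with its SE (edgeR), for each member in each context where it could be fitted. Outside diaphragm all values lie between -0.46 and 0.39, *Foxf1* and *Foxp2* in diaphragm lie at -2.23 and -1.17, and *Foxf2* in diaphragm is not drawn because it was picked on that value.

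Within a library, the balance of *Foxf1* and *Foxf2* is independent of library size. As a share of *Foxf1* plus *Foxf2* TPM, *Foxf1* made up 86.5, 82.6, 81.1 and 84.7% in wt trachea and 75.1, 75.5, 75.4 and 74.9% in mutant trachea. In lung at E12.5, the shares were 82.8, 85.3, 82.1 and 85.0% in wt and 80.6, 78.8, 79.5 and 77.2% in mutants. In lung at E15.5, they were 63.7, 64.4, 64.2 and 63.2% in wt and 57.2, 56.6, 58.7 and 60.9% in mutants. Every mutant library lay below every wt library in these 3 contexts. The mean share was lower in mutants by 8.50 percentage points in trachea (83.7% ± 2.34 to 75.2% ± 0.293), by 4.74 in lung at E12.5 (83.8% ± 1.61 to 79.0% ± 1.44) and by 5.49 in lung at E15.5 (63.9% ± 0.561 to 58.4% ± 1.93). Each gave p = 0.0286 in a two-sided exact permutation test, the smallest value that 4 against 4 libraries allow, and 0.0476 after adjustment over the 5 contexts tested. The test had been planned for iBAT too, where a mutant library without any Foxf count leaves the share undefined. With iBAT counted as a further context, the adjusted exact permutation p would be 0.0571, which does not pass. Leaving out 1 library takes the design below what can pass, with adjusted p of 0.0952, although the difference kept its sign in all 8 such exact permutation tests of each of these contexts. At E10.5, somites had shares of 56.5% ± 6.21 (wt) and 53.4% ± 3.73 (mutant), and at E12.5 of 39.6% ± 8.42 and 42.3% ± 3.89, with exact permutation p = 0.571 for both.

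**Figure D3:**
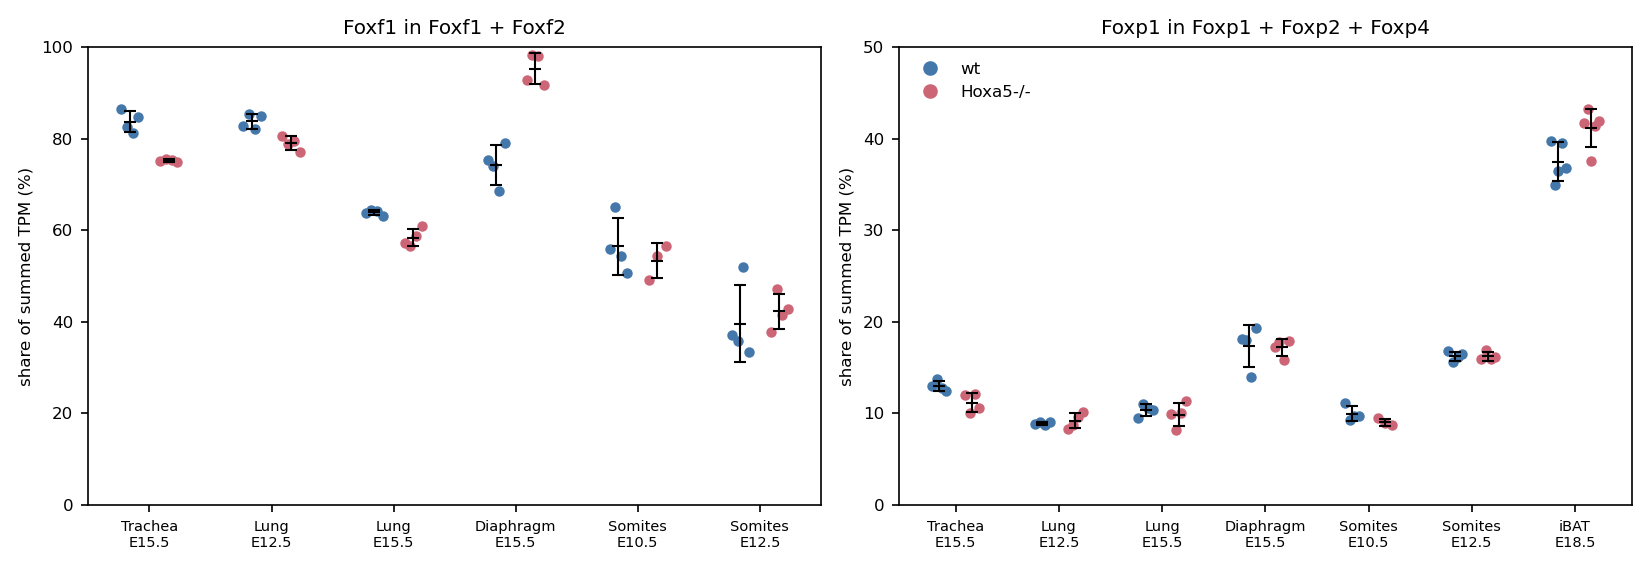
Left, *Foxf1* as a percentage of *Foxf1* plus *Foxf2* TPM per library in 6 contexts, and right, *Foxp1* as a percentage of *Foxp1*, *Foxp2* and *Foxp4* TPM in 7 contexts, with mean and SD of wt and *Hoxa5*-/- libraries. In trachea and in lung at both stages the mutant *Foxf1* shares lie below all wt shares, and in diaphragm they lie above.

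Among the Foxp genes, the *Foxp1* share in trachea was 12.99% ± 0.595 in wt and 11.2% ± 1.05 in mutants, without overlap, and in iBAT it was 37.5% ± 2.11 and 41.2% ± 2.11. The two-sided exact permutation tests gave p = 0.0286 and 0.0397, and 0.139 for both after adjustment over 7 contexts, so neither passed. The names of the iBAT libraries carry a number that wt and mutant libraries share, and the sources used here do not say what it marks. The libraries were paired within the shared number by replicate number, and some pairs carry the same number, so the pairs are not all independent. In each of the 5 pairs the mutant had the higher share. The exact permutation test within pairs gave p = 0.0625, the smallest that 5 pairs allow, and 0.438 after adjustment. The other 5 contexts had adjusted exact permutation p of 0.267 or higher.

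In diaphragm, *Foxf2* had 5.03, 10.2, 18.9 and 2.48 TPM in wt (77, 198, 355 and 59 counts) and 0.300, 0.0638, 0.132 and 0.482 TPM in *Hoxa5*-/- libraries (7, 2, 3 and 14 counts). All wt libraries were above all mutant libraries. The mean was 9.15 ± 7.24 TPM in wt and 0.244 ± 0.187 TPM in mutants (SD, n = 4), a ratio of 37.4, or of 24.2 without wt replicate 3. These are the values for which *Foxf2* was picked. They vary widely within wt, where replicate 3 was the highest and replicate 4 the lowest library for *Foxf1*, *Foxf2*, *Foxp2* and *Foxp4*.

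*Foxf1* in diaphragm was 15.3, 28.9, 41.4 and 9.37 TPM in wt and 3.90, 3.81, 6.88 and 5.39 TPM in mutants (93, 122, 160 and 160 counts). *Foxp2* was 3.502, 5.95, 7.20 and 3.05 TPM in wt and 2.23, 2.27, 2.13 and 2.06 TPM in mutants. For both genes, no mutant library reached the lowest wt library, which held with lower mutant values for 4.62% of the 18019 genes tested in diaphragm. Of the 4 members tested, *Foxf1*, *Foxp1*, *Foxp2* and *Foxp4*, 0 were called (edgeR; 0.594% of all genes tested), with 2 at an unadjusted p under 0.05. *Foxf1* had a log2 fold change of -2.23 (SE 0.434, edgeR adjusted p = 0.0696) and *Foxp2* one of -1.17 (SE 0.236, edgeR adjusted p = 0.0750). DESeq2, the test that the study used with the same filter and call limits, called both, with adjusted p of 3.95e-06 and 9.60e-05. Without wt replicate 4 edgeR also called both, with adjusted p of 0.0262 and 0.0309. Without any other single library, edgeR adjusted p of both genes lay between 0.0768 and 0.213. These tests use the libraries on which *Foxf2* was picked and are not independent of that choice. *Foxp1*, with 15.04 ± 1.35 TPM in wt and 14.5 ± 1.56 in mutants, and *Foxp4*, with 68.2 ± 14.5 and 67.7 ± 7.34 TPM, had ratios of 1.04 and 1.01. As *Foxf2* was lower by a larger factor than *Foxf1*, the *Foxf1* share was 75.2, 73.9, 68.7 and 79.1% in wt and 92.9, 98.4, 98.1 and 91.8% in mutants, given here without a test.

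Of the genes of lung and gut mesenchyme, *Tcf21* and *Barx1* fell in mutant diaphragm. Of 11 tested genes of that list, 10 had a log2 fold change below 0 and 2 were called, with a list median of -0.96 beside 0.0049 over all genes tested. The summed TPM of the list overlapped between genotypes, at 223 to 374 in wt and 194 to 259 in mutants, and *Bmp4*, a growth factor of this mesenchyme, was 54.7 to 80.9 TPM in wt and 63.7 to 93.9 TPM in mutants. *Tcf21*, a factor of visceral mesenchyme, fell from 12.2, 24.7, 34.2 and 4.60 TPM to 2.07, 1.28, 1.46 and 1.56 TPM (log2 fold change -3.55, edgeR adjusted p = 0.0314), and *Barx1*, a stomach and oesophagus mesenchyme factor, had a log2 fold change of -1.27 (edgeR adjusted p = 0.0215). *Fendrr*, the neighbour of *Foxf1*, was 8.50, 18.1, 36.7 and 5.38 TPM in wt and 2.10, 1.07, 3.75 and 2.38 TPM in mutants (log2 fold change -2.87, edgeR adjusted p = 0.0903). *Foxl1*, a forkhead gene of gut mesenchyme, was 3.48, 7.83, 4.65 and 0.403 TPM in wt and 0.337, 0.446, 0.614 and 0.451 TPM in mutants, where wt replicate 4 lay within the mutants. Of 10 Hedgehog genes, 8 were below 0 and 0 were called by edgeR, with a median of -0.47. The ligand *Shh* was 1.03, 4.02, 9.58 and 0.0697 TPM in wt and at most 0.143 TPM in mutants, and the antagonist *Hhip* had a ratio of wt to mutant of 4.95. Of 13 corepressor genes 0 were called by edgeR, 5 were below 0 and the median was 0.06, and of 23 tested other forkhead genes 0 were called, 15 were below 0 and the median was -0.08.

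Some markers of other cell types were also called in diaphragm. All 7 smooth muscle genes were below 0, with 4 called (*Actg2*, *Cnn1*, *Myocd* and *Myh11*) and a median of -2.73, and the summed TPM of the list was 1190 to 2010 in wt and 903 to 1280 in mutants. *Myh11*, the smooth muscle myosin, fell from 96.4, 156, 39.1 and 53.5 TPM to 5.43, 4.02, 2.81 and 4.79 TPM. All 4 neural genes were below 0, with *Tubb3* and *Sox10* among those called, and summed to 26 to 57.2 TPM in wt and 7.46 to 10.7 TPM in mutants. Of 10 epithelial genes, 9 were below 0 and 1, *Esrp1*, was called, with sums of 75.3 to 326 TPM in wt and 59.0 to 148 TPM in mutants. All 7 hepatocyte genes were above 0 with 0 called, and their sum, 1770 to 10000 TPM in wt and 406 to 12200 TPM in mutants, was highest in wt replicate 3 and mutant replicates 3 and 4. The 9 skeletal muscle genes had 0 called and sums of 14900 to 30700 and 11400 to 21500 TPM, and the 7 endothelial genes had 0 called and sums of 314 to 383 and 230 to 309 TPM. The part of these cell types in the *Foxf1*, *Foxf2* and *Foxp2* values was not tested.

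The wt libraries differed in which markers of other tissues they held, and the source of these markers was not tested. Wt replicate 3 had 57.1 TPM of the lung and thyroid factor *Nkx2-1* and 322 TPM of *Sftpc*, where no other diaphragm library exceeded 0.642 and 11.8 TPM. Wt replicates 1 and 2 had 46.2 and 75.6 TPM of the basal keratin *Krt5*, and 2.09 and 5.90 TPM of *Foxe1*, a forkhead gene of thyroid and foregut epithelium, where the other 6 libraries had at most 1.15 and 0.0537 TPM. In wt replicate 4, *Epcam* was 1.58 TPM and *Krt5* 1.04 TPM, within the mutant range. *Foxf1* was 9.37 TPM and *Foxp2* 3.05 TPM in that library, and the highest mutant values were 6.88 and 2.27 TPM. *Myh11* was 53.5 TPM there. Without wt replicate 3, the ratio of wt to mutant means was 3.58 for *Foxf1* and 1.92 for *Foxp2*, against 4.75 and 2.27 with it, and 8.68 for *Tcf21* and 23.9 for *Myh11*. Without wt replicates 1 and 2, an alternative added after the data were seen, the log2 fold change was -2.31 for *Foxf1* and -1.22 for *Foxp2* (edgeR adjusted p = 0.426 and 0.427). Without the 3 libraries of highest hepatocyte sums, likewise added, it was -2.24 and -0.92 (edgeR adjusted p = 0.0903 and 0.187).

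**Figure D4:**
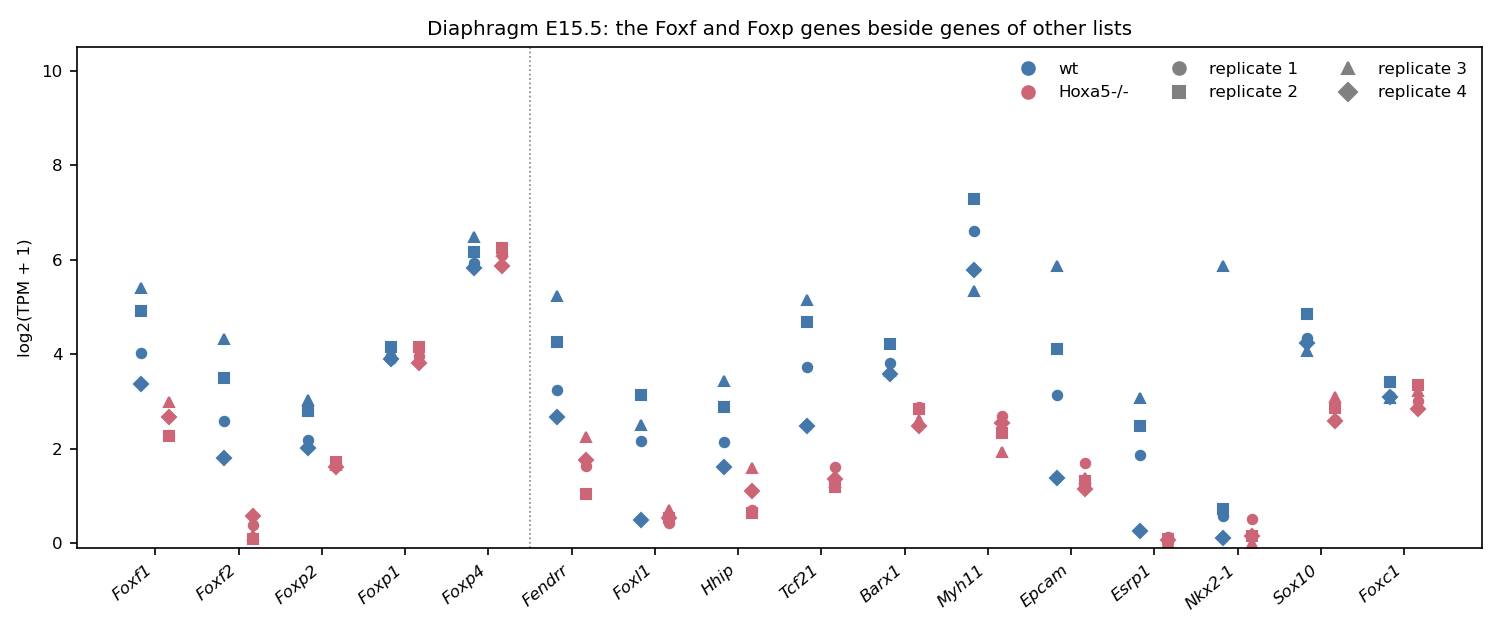
Level in each diaphragm library, as log2(TPM + 1), of the Foxf and Foxp genes (left of the divider) and of mesenchyme, Hedgehog, smooth muscle, epithelial and neural genes (right), with 1 symbol per replicate number and wt and *Hoxa5*-/- side by side. *Foxf1*, *Foxf2*, *Foxp2*, *Fendrr*, *Tcf21* and *Myh11* show no overlap between genotypes, *Foxp1* and *Foxp4* do overlap, and wt replicate 3 is far above the other libraries for *Nkx2-1* and *Epcam*.

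Whether the genotype effect differed between contexts was tested as an interaction within the respiratory set and within somites. Between diaphragm and lung at E15.5, 2 of 4 members differed (0.730% of all genes tested). The *Foxf1* effect was lower in diaphragm by 2.07 on the log2 scale (log2 difference -2.07, SE 0.448, edgeR adjusted p = 0.0475), and so was that of *Foxp2* (-1.25, SE 0.262, edgeR adjusted p = 0.0364). At least 1 of these calls was lost without a single library in 15 of 16 cases, wt replicate 4 of diaphragm being the exception. Only *Foxp2* kept its call without wt replicate 3 of lung, or without wt replicate 1 or 3 of diaphragm. In the remaining cases both calls were lost. Since the rule for *Foxf2* used the diaphragm contrast, the calls are not independent of it. Between diaphragm and trachea 0 of 4 were called (0.439% of all genes tested), with *Foxf1* at -1.76 (SE 0.473, edgeR adjusted p = 0.146) and *Foxp2* at -1.55 (SE 0.363, edgeR adjusted p = 0.0789), both under an unadjusted p of 0.05, and DESeq2 called 2. The remaining interactions called 0 members by edgeR and by DESeq2, between lung stages (0.0267% of all genes tested), between lung at E15.5 and trachea (0.00502%) and between somite stages (0.0147%). Of these, 1 had an unadjusted p under 0.05, for *Foxp4* between somite stages (-0.43, SE 0.139, edgeR adjusted p = 0.327).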

How the data were processed

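Polyadenylated RNA of 57 libraries was measured by bulk RNA-seq, and each library was assigned to its context, genotype and replicate from the labels. The study states that replicates are biological. The authors' counts per gene come from featureCounts 2.0.3, applied to alignments by STAR 2.7.9a on build GRCm39 after trimming with Trim Galore 0.6.5 (versions from the submitters' processing notes), with a GENCODE annotation that they curated for Hox genes. The deposited count tables hold whole numbers without normalization. The deposited TPM values were derived by the authors from these counts and exon lengths, and TPM recomputed here differed by at most 2.9e-11. No 2 libraries had identical counts. In the table of somites and iBAT, 2573 gene names with another separator were matched.

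Genotypes within a context, wt contexts within a table and interactions were tested by quasi-likelihood in edgeR 4.0.16 (R 4.3.3, TMM, Benjamini-Hochberg over all genes tested). Genes entered a genotype fit with a mean of 1 TPM or more in either group, and a comparison of wt contexts with that mean in any wt group of the table. Calls needed an adjusted p under 0.05 and, except for interactions, a fold change of at least 1.5. Paralog shares of TPM were compared by exact two-sided permutation. Likeness is Pearson's r of log2(TPM + 1). Python 3.11.15, pandas 2.3.3, scipy 1.17.1 and matplotlib 3.10.9 were used, and the fits were tested on simulated data. The genes, marker lists and tests were chosen with earlier results of these data known. Named are the 6 genes, the listed genes, neighbours of the 6 genes (the nearest coding gene on each side, and genes at 1 TPM or more that overlap or lie within 5000 bases) and the 3 genes most like each, except for genes that are not reported here. Alternatives were DESeq2 1.42.0, its size factors in edgeR, at least 10 counts or no filter, no fold minimum, a replicate block, 1 fit for a table, other share and likeness measures, and leaving out libraries. Total counts per library are given above. Values after ± are SDs between libraries, and each SE is the log2 fold change divided by the square root of the edgeR F statistic.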

Additional observations from a re-analysis of the deposited data

Results flagged for a closer look

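In 77 groups of 4 or more libraries of the 6 genes, 4 had a library far from the others by Dixon's criterion, where chance gives about 1 in 20. *Foxp1* was 31.16 TPM in wt replicate 3 of somites at E10.5, with 23.32 to 24.07 TPM in the other wt libraries, and *Foxp4* was also highest in that library (272 TPM). *Foxp2* was 14.43 TPM in mutant replicate 3 of trachea, with 24.07 to 25.85 TPM in the other mutants, and *Foxf1* (40.9 TPM) and *Foxp4* (142 TPM) were lowest there among the mutants too. *Foxp3* was 0.5784 TPM, or 19 counts, in mutant replicate 1 of lung at E12.5, with 0.2402 to 0.2853 TPM in the others. *Foxf1* was 0.1815 TPM, or 4 counts, in mutant replicate 3 of iBAT, with 0 to 0.05203 TPM in the others, and this is a difference of a few reads.

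The genotype effect differed between diaphragm and lung at E15.5 by -2.07 on the log2 scale for *Foxf1* and by -1.25 for *Foxp2* (interaction test of edgeR, adjusted p = 0.0475 and 0.0364). Of all genes tested, 0.730% were called. At least 1 of these 2 calls was lost without a single library in 15 of 16 cases, and both were lost in most of them. The calls also use the diaphragm libraries on which *Foxf2* was picked and are not independent of that choice. In lung, the *Foxf1* effect was -0.18, and in diaphragm -2.23. In the same diaphragm comparison 4 of 7 smooth muscle genes and 1 of 10 epithelial genes were called lower in mutants, with summed TPM that overlapped between genotypes for both lists, and the summed TPM of 4 neural genes was 26 to 57.2 in wt and 7.46 to 10.7 in mutants. Their part in the result was not tested.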

How the results depend on the processing

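Of 237 alternatives for the number of Foxf and Foxp genes called between groups, 230 kept it on the same side, and no log2 fold change of a member reversed in 958 alternatives. The numbers of genes called include *Foxf2* against wt diaphragm, on which it was picked, and *Foxf1* and *Foxf2* in iBAT. They are therefore no support for those calls. The exceptions concern mostly diaphragm. There, 2 members, *Foxf1* and *Foxp2*, were called with DESeq2, with no filter, with the replicate block and with 1 fit for the table, against 0 as reported, and leaving out single libraries gave 0 to 2. Leaving out wt libraries 1 and 2, or wt library 3 and mutant libraries 3 and 4, both chosen after seeing the data, gave 0. For the interaction of diaphragm with trachea DESeq2 gave 2 against 0 and leaving out libraries 0 to 2, for that of diaphragm with lung at E15.5 leaving out libraries gave 0 to 2 against 2, and for somite stages it gave 0 to 1 against 0, with the call of *Foxp4* made without wt replicate 3 of E10.5. Between wt lung stages, leaving out libraries gave 1 to 3 calls against 2. The cause of these changes was not tested.

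The numbers of the replicates were not treated as pairs, since deviations of same-numbered libraries correlated at -0.145 to 0.538 per pair and in no context did all pairs exceed 0.1. With the replicate block, the *Foxf1* share differed by -8.499 points in trachea, -4.742 in lung at E12.5 and -5.495 in lung at E15.5, as without it, but with 4 pairs the exact permutation test could not pass (adjusted p = 0.208). The libraries that correlated best with their own number were 7 of 10 for iBAT, 5 of 8 for diaphragm, 3 of 8 each for trachea and E15.5 lung, 0 of 8 for E12.5 lung, 4 of 8 for E12.5 somites and 1 of 6 for E10.5 somites. Each library could match 5 of the other genotype in iBAT and 4 in diaphragm, so pairing is not excluded in these 2 contexts. In diaphragm, the replicate block gave edgeR adjusted p of 0.0233 for *Foxf1* and 0.0317 for *Foxp2*. Leaving out 1 library gave share differences of -9.363 to -7.574 points in trachea, -5.314 to -4.123 in lung at E12.5 and -6.347 to -4.904 in lung at E15.5, each with an adjusted exact permutation p of 0.0952. The *Foxp1* share, which passed in no context, reversed in diaphragm with raw counts (1.376 points) and in somites at E12.5 as a log2 ratio (3.642e-05). Without single libraries it ran from -1.286 to 0.4778 points in diaphragm, from -0.2408 to 0.1744 in somites at E12.5, from -0.01522 to 0.6189 in lung at E12.5 and from -0.9666 to 0.07766 in lung at E15.5. Ranking contexts by CPM in place of TPM moved 2 of 42 places, both of *Foxp1*, and other libraries or pseudocounts moved 31 of 45 likeness ranks out of the first 3. With a few counts per library, *Foxp3* in all contexts and *Foxf1* and *Foxf2* in iBAT are below what can be compared.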

Other observations

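The neighbours of the Foxf genes were described in the same libraries. *Fendrr*, which lies next to *Foxf1* on the opposite strand, had 198 ± 10.98 TPM in wt lung at E12.5 (SD, n = 4), 194 ± 18.8 in wt lung at E15.5, 60.0 ± 6.01 in wt trachea, 17.2 ± 14.1 in wt diaphragm and 6.11 ± 2.07 in wt somites at E10.5. The order of lung, trachea, diaphragm and these somites was that of *Foxf1*, while the lung stages of *Fendrr* differed by less than their SDs. In trachea, *Fendrr* was 51.9 to 66.4 TPM in wt and 39.6 to 46.4 TPM in *Hoxa5*-/- libraries. The groups did not overlap, as was the case with lower mutant values for 1.66% of the 19220 genes tested in trachea. The log2 fold change of *Fendrr* was -0.48 (SE 0.0851) and did not pass the test (edgeR adjusted p = 0.375). Over the 57 libraries, *Fendrr* was also the gene whose log2(TPM + 1) values were most like those of *Foxf1* (Pearson's r = 0.981, a description across libraries that share contexts and sequencing sets), and in the 32 libraries of the respiratory set it was again the first (r = 0.988), whereas in the iBAT and somite set alone it was at place 2635 (r = 0.966). *B130024G19Rik* (r = 0.967) and *Foxl1* (r = 0.960) followed. For *Foxf2* the most alike were *Ptch1* (r = 0.970), *Tcf7* (0.967) and *Cdc42ep4* (0.957), for *Foxp1* *Zmiz1* (0.987), *L3mbtl3* (0.986) and *Smad4* (0.985), for *Foxp2* *Cdc42ep4* (0.979), *Irx2* (0.979) and *Ptch1* (0.970), and for *Foxp4* *Patz1* (0.994) and *Vezf1* (0.994) were among the 3 most alike. The *Foxf2* values of r include the diaphragm libraries on which it was picked. *Ptch1*, *Tcf7* and *Cdc42ep4* were at places 5, 3 and 37 for *Foxf2* in the respiratory set, and at 250, 2647 and 2063 in the iBAT and somite set. Between members, r was 0.933 for *Foxf1* and *Foxf2*, 0.981 for *Foxp1* and *Foxp4*, and 0.951 for *Foxf2* and *Foxp2*.

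*Foxc1*, a forkhead gene 175230 bases from *Foxf2* that acts in skeletal, vascular and eye mesenchyme, had another pattern. It was 50.04 ± 3.95 TPM in wt somites at E12.5 and 43.6 ± 8.17 at E10.5, 29.9 ± 5.54 in trachea, 8.35 ± 3.36 in lung at E12.5 and 1.43 ± 0.311 in lung at E15.5 (SD, n = 4). In wt lung it fell between the stages (log2 fold change -2.58, SE 0.264, edgeR adjusted p = 1.77e-06), where *Foxf2* rose, a call that was lost without wt replicate 1 or 2 of lung at E12.5. In lung at E15.5, *Foxc1* was 1.001 to 1.74 TPM in wt and 2.24 to 4.80 TPM in *Hoxa5*-/- libraries, and the log2 fold change of 1.34 (SE 0.257) did not pass (edgeR adjusted p = 0.145). In diaphragm it was 7.44 to 9.60 TPM in wt and 6.10 to 9.20 TPM in mutants. Of the other forkhead genes, *Foxj1*, the factor of motile cilia, rose between lung stages from 1.501 ± 0.39 to 39.7 ± 25.2 TPM (log2 fold change 4.68, edgeR adjusted p = 5.73e-06), and was 259 ± 117 TPM in trachea. *Foxm1*, a cell cycle factor, was 122 ± 6.79 TPM in lung at E12.5, 125 ± 7.42 at E15.5 and 5.81 ± 1.11 in iBAT (n = 5).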
